A study of Mus musculus with 12 samples.

Results

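Integrins and cadherins are the receptors by which a cell holds on to matrix and to its neighbours, and 35 genes of these families were read here in osteoblasts and endothelial cells sorted from the long bones of mice with and without breast tumor cells in the skeleton. They comprised 16 integrin alpha subunits, 8 integrin beta subunits and 11 cadherins, out of 19937 genes with a probe set of a single gene symbol. Each of the 35 had exactly 1 such probe set. Tests were run where a gene lay over the 40th percentile of its array on 3 or more of the 12 arrays, as 28 of the 35 and 14217 genes in all did. The 7 that did not pass were Itgae, Itgam, Itgax, Itgb6, Cdh3, Cdh8 and Cdh10.

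All mice were female C57BL/6, and their age is not given in the sources used here. Tumor-bearing mice had received 500000 EO771 cells, a mouse mammary carcinoma line of the same strain, into the heart, and the cells grew in the long bones for about 2 weeks, followed by bioluminescence. The comparison mice were tumor-free, and the labels do not say whether they had an injection without cells. Osteoblasts were sorted as cells without GFP, TR119, CD45, SCA1 and CD31 and with CD51, and endothelial cells as cells without GFP, TR119 and CD45 and with SCA1 and CD31. The 4 groups, each cell type with and without tumor, had 3 arrays each. RNA of 5000 cells per sample was amplified and hybridised to Affymetrix Mouse Gene 1.0 ST arrays, and the values are on the log2 scale, where a difference of 1 is a doubling. Levels of different genes cannot be compared, because each probe set has its own brightness. The labels call the replicates biological without naming the animals, so p-values measure the spread between these samples only.

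Integrins are pairs of an alpha and a beta subunit, and the alpha subunit largely sets which matrix protein is bound, whether collagen, laminin or fibronectin. Most alpha subunits of matrix-bound cells pair with the beta subunit encoded by Itgb1. Classical cadherins bind the same cadherin on the neighbouring cell in the presence of calcium and are linked to actin through catenins. In bone, N-cadherin (Cdh2) and cadherin 11 (Cdh11) join cells of the osteoblast lineage, and VE-cadherin (Cdh5) joins endothelial cells.

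The labelled cell types carried their markers. A list of 12 endothelial genes, which includes Cdh5, summed to 12671 to 15803 in linear units in endothelial arrays and to 690 to 946 in osteoblast arrays. It also holds Pecam1, which codes for the sort marker CD31, so its direction is not independent of the gate. The 8 measured genes of an osteoblast list summed to 11766 to 16688 in osteoblast arrays and to 850 to 1849 in endothelial arrays. A list of 10 marrow stromal (CAR) cell genes summed to 6647 to 7818 in tumor-free osteoblasts and 1354 to 2134 in tumor-free endothelial cells. With tumor the sums were 3800 to 5710 and 3356 to 5447. Without tumor 9 of the 10 were higher in osteoblasts (limma, adjusted p under 0.05), or 90% against 5.38% of all genes in that direction. With tumor 0 were, against 4.89% of all genes. The part of such cells in the osteoblast values was not tested. Array 3 of both osteoblast groups stood apart in blood cell genes: the median of 10 pan-haematopoietic markers was 7.06 there without and 6.81 with tumor, and 5.61 to 5.95 in the remaining osteoblast arrays. Counts of genes past the test are therefore also given without these arrays. Replicates of a group correlated over all probe sets at 0.912 to 0.954.

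Of the 35 genes, 22 lay above the array's 40th percentile in all 12 arrays, 7 in some and 6 in none. Tumor-free osteoblasts held 24 genes above it in all 3 arrays, tumor-bearing osteoblasts 24, tumor-free endothelial cells 23 and tumor-bearing endothelial cells 25. The filter built on this percentile passed 14217 of all 19937 genes. The percentile was 5.51 to 5.61, below the array medians of 5.95 to 6.04. A value above it does not show that a gene is expressed. Cdh5 lay above it in every osteoblast array at 5.54 to 6.23, although its endothelial values were 11.39 to 11.91. Itgb8 and Itga4 were above it in osteoblast arrays only, Itgb8 in all 6 and Itga4 in 4. The cell types thus differed less in how many of these genes were above the percentile than in the levels of particular ones.

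**Figure D1:**
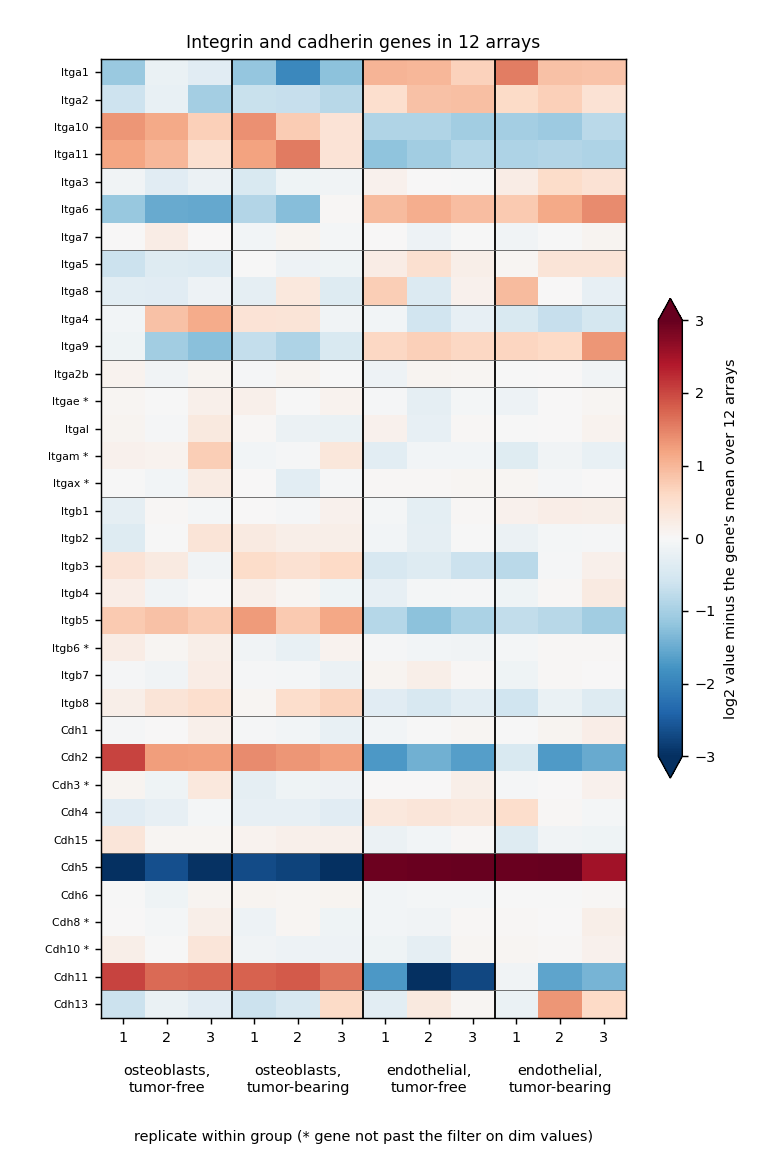
Heat map of the log2 value of the genes (rows, ordered by role) in the 12 arrays (columns, in 4 groups of 3), each gene shown as its difference from its own mean over the arrays, with colours ending at 3 in either direction. The strongest contrasts lie between the cell types, as in Cdh5 (5.54 to 6.23 in osteoblasts, 11.39 to 11.91 in endothelial cells).

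In tumor-free mice 13 of the 28 tested genes differed between the cell types (limma, adjusted p under 0.05), 6 higher in osteoblasts and 7 higher in endothelial cells. This is 46.4% of them, against 12.4% of all genes tested, of which 5.38% were higher in osteoblasts and 7% in endothelial cells. In tumor-bearing mice 12 differed, 6 in each direction, or 42.9% against 10.6% of all genes (4.89% and 5.68% by direction). The arrays of the cell types did not overlap for 17 of the 28 in tumor-free mice (60.7%, against 29.4% of all genes) and for 20 in tumor-bearing mice (71.4%, against 28.1%). Higher in osteoblasts in both were Itga10, Itga11, Itgb5, Itgb8, Cdh2 and Cdh11. Higher in endothelial cells in both were Itga1, Itga2, Itga6, Itga9 and Cdh5. These 11 genes are 84.6% of the tumor-free calls and 91.7% of the tumor-bearing calls, where all genes shared 60% and 70.3%. A gene that passes the filter through one cell type alone leans to that type by the filter, whether it passes the test, as Itgb8, or not, as Itga4. Among genes above the 40th percentile in at least 3 arrays of each cell type, a limit set after the values were seen, 12 of 24 differed in tumor-free mice (50% against 11.7% of such genes) and 11 of 24 in tumor-bearing mice (45.8% against 9.77%), with 10 in both. That limit leaves out Itga4, Itga8, Itgb8 and Cdh1. The median difference of the 28 was 0.05 in tumor-free and -0.05 in tumor-bearing mice, and of all genes -0.01 and -0.03. Without array 3 of both osteoblast groups 12 genes passed in each comparison.

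The collagen receptors split between the cell types. All 4 collagen-binding alpha subunits pair with the product of Itgb1, and all 4 passed the test in both comparisons, Itga10 and Itga11 higher in osteoblasts and Itga1 and Itga2 higher in endothelial cells. The 250 bases before the start of each of these genes, from RefSeq on GRCm38.p6 and read along the gene's strand, are shown because the genes are of one class with opposite direction. Capitals mark the 5-letter core of ETS factor sites, GGAAG or its reverse complement CTTCC, which 64.1% of 32851 promoter windows of this length hold. The core of RUNX factor sites, TGTGGT or its reverse complement ACCACA, was searched too, has no match in these windows, and is held by 14.0% of all.
Itga1, chr13:115101965-115102214, minus strand: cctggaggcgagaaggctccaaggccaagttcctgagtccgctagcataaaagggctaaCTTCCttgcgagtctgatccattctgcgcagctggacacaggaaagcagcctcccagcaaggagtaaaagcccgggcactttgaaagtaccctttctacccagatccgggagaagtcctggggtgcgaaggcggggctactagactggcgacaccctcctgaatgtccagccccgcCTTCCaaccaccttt
Itga2, chr13:114932101-114932350, minus strand: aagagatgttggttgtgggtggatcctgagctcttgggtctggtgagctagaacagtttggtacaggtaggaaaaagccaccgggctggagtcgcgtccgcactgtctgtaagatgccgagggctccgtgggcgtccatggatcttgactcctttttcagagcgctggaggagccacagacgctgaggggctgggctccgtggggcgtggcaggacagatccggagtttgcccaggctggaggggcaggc
Itga10, chr3:96645334-96645583, plus strand: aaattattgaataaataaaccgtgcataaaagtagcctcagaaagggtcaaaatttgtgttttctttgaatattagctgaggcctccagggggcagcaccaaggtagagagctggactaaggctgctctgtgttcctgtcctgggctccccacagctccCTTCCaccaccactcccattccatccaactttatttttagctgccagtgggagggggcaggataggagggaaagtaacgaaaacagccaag
Itga11, chr9:62677605-62677854, plus strand: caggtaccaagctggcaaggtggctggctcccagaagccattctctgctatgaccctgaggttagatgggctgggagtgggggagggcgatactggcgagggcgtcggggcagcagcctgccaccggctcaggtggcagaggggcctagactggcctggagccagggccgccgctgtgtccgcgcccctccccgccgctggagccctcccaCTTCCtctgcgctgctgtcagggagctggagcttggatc

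The Itga1 window holds 2 ETS cores, starting 191 and 15 bases before the start site, the Itga10 window 1 at 91 bases, the Itga11 window 1 at 39 bases and the Itga2 window 0. A core was therefore present in genes of either direction, and a match of these letters is a description and not a bound site.

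Itga10, a receptor for cartilage and bone collagens, had log2 values of 8.83, 8.65 and 8.24 in tumor-free and 8.88, 8.28 and 7.93 in tumor-bearing osteoblasts. In endothelial cells they were 6.62, 6.62 and 6.46 without and 6.50, 6.43 and 6.69 with tumor. Every osteoblast array was above every endothelial array, by 2.01 (SE 0.23, 4.02-fold; limma, adjusted p = 0.0002) without and 1.82 (SE 0.23, 3.53-fold; limma, adjusted p = 0.000425) with tumor. A list of 13 chondrocyte genes also had higher sums in osteoblast arrays (3743 to 14508) than in endothelial arrays (1290 to 1541), and its part in this difference was not tested. Itga11, a receptor of mesenchymal cells for fibrillar collagen, measured 8.22, 8.04 and 7.51 in tumor-free and 8.25, 8.58 and 7.44 in tumor-bearing osteoblasts, against 5.84, 5.99 and 6.18 and 6.11, 6.15 and 6.11 in endothelial cells. Again no array overlapped, and the differences were 1.92 (SE 0.27, 3.79-fold; limma, adjusted p = 0.000838) and 1.97 (SE 0.27, 3.91-fold; limma, adjusted p = 0.000798).

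Itga1 and Itga2 code for the other collagen-binding subunits, which endothelial cells are known to carry. Itga1 measured 9.75, 9.72 and 9.42 in tumor-free and 10.26, 9.61 and 9.58 in tumor-bearing endothelial cells, and 7.62, 8.52 and 8.40 and 7.56, 6.79 and 7.50 in osteoblasts. All endothelial arrays were above all osteoblast arrays. Osteoblasts minus endothelial cells gave -1.45 (SE 0.29; limma, adjusted p = 0.00719) in tumor-free and -2.53 (SE 0.29; limma, adjusted p = 0.000229) in tumor-bearing mice, so that endothelial cells were 2.73-fold and 5.79-fold higher. Itga2 measured 7.51, 7.88 and 7.90 in tumor-free and 7.56, 7.70 and 7.43 in tumor-bearing endothelial cells, against 6.38, 6.78 and 5.98 and 6.33, 6.30 and 6.17 in osteoblasts. The groups did not overlap, and endothelial cells were 2.61-fold higher without tumor (-1.38, SE 0.19; limma, adjusted p = 0.000743) and 2.47-fold higher with tumor (-1.30, SE 0.19; limma, adjusted p = 0.00124).

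Among the laminin-binding subunits Itga6 was higher in endothelial cells, whose basement membrane is rich in laminin. It measured 9.16, 9.28 and 9.13 in tumor-free and 8.98, 9.34 and 9.61 in tumor-bearing endothelial cells, against 7.07, 6.69 and 6.67 and 7.31, 6.93 and 8.23 in osteoblasts. No osteoblast array reached the endothelial ones, although array 3 of the tumor-bearing osteoblasts came nearest. Endothelial cells were 5.21-fold higher without tumor (-2.38, SE 0.29; limma, adjusted p = 0.000347) and 3.53-fold higher with tumor (-1.82, SE 0.29; limma, adjusted p = 0.00232). Itga3, which pairs with the product of Itgb1 on laminin, had lower values in osteoblasts (6.00, 5.77 and 5.94 without and 5.66, 5.99 and 6.01 with tumor) than in endothelial cells (6.24, 6.13 and 6.11 and 6.34, 6.66 and 6.56). The arrays did not overlap in either setting, but only the tumor-bearing comparison passed, with -0.63 (SE 0.13; limma, adjusted p = 0.00994) against -0.26 (limma, adjusted p = 0.277) in tumor-free mice. The difference between these 2 differences was -0.38 (limma, adjusted p = 0.786). Itga7, the laminin receptor of muscle, lay between 5.91 and 6.28 in all arrays.

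Of the fibronectin- and RGD-binding subunits, Itga5, which codes for the alpha subunit of the main fibronectin receptor, was higher in endothelial cells. It measured 7.43, 7.69 and 7.39 in tumor-free and 7.27, 7.61 and 7.61 in tumor-bearing endothelial cells, against 6.56, 6.83 and 6.80 and 7.19, 7.07 and 7.09 in osteoblasts. The osteoblast arrays were below the endothelial arrays in both settings, 1.71-fold in tumor-free mice (-0.77, SE 0.13; limma, adjusted p = 0.00309), while with tumor the difference of -0.38 did not pass (limma, adjusted p = 0.107). The tumor-bearing minus the tumor-free difference was 0.40 (limma, adjusted p = 0.782). Itga8, an RGD receptor of mesenchyme and smooth muscle, spread from 5.30 to 6.64 in endothelial and from 5.31 to 6.01 in osteoblast arrays, with groups that overlapped.

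Itga9, whose product binds tenascin and VEGF-C among others and is known from lymphatic vessels, was higher in endothelial cells. Its values there were 8.55, 8.64 and 8.55 without and 8.57, 8.53 and 9.25 with tumor, and in osteoblasts 7.80, 6.89 and 6.67 and 7.21, 6.99 and 7.46. The groups did not overlap, and the difference was 2.75-fold in tumor-free (-1.46, SE 0.28; limma, adjusted p = 0.00644) and 2.95-fold in tumor-bearing mice (-1.56, SE 0.28; limma, adjusted p = 0.0051). The related Itga4, part of VLA-4 and typical of blood cells, had its higher values in osteoblasts, 5.37, 6.32 and 6.57 without and 5.86, 5.83 and 5.35 with tumor, against 5.37, 4.88 and 5.21 and 5.00, 4.76 and 4.92. It passed the filter through osteoblast arrays alone, and its differences of 0.93 and 0.78 did not pass the test (limma, adjusted p = 0.0555 and 0.114). Its highest value stood in array 3 of the tumor-free osteoblasts and its lowest among tumor-bearing osteoblasts in array 3 of that group. Blood cell markers were high in both of these arrays, and their part in the Itga4 values was not tested.

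The alpha subunits of platelets and leukocytes that were tested passed in neither comparison of the cell types. Itga2b, the platelet subunit CD41, lay between 6.13 and 6.38 everywhere, and Itgal, the lymphocyte subunit CD11a, between 5.58 and 6.11. Itgae, Itgam and Itgax did not exceed the 40th percentile in any array and were not tested. Itgam, the myeloid subunit CD11b, measured 4.87, 4.84 and 5.48 in tumor-free and 4.64, 4.70 and 5.07 in tumor-bearing osteoblasts. Endothelial values were lower in both settings without overlap, at 4.41, 4.65 and 4.65 and at 4.37, 4.63 and 4.52. Itgae did not overlap without tumor (5.13, 5.05 and 5.21 against 5.02, 4.81 and 5.02) and overlapped with tumor. Of all genes tested, 29.4% and 28.1% did not overlap. A list of 13 neutrophil genes had a median of 8.44 in array 3 of the tumor-free osteoblasts, where Itgam was highest, and of 5.54 to 6.78 in the other 11. The part of blood cells in the Itgam values was not tested.

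Among the beta subunits the shared partner Itgb1 was level between the cell types, while Itgb5 and Itgb8 were higher in osteoblasts. Itgb1 measured 10.60, 10.89 and 10.80 in tumor-free and 10.87, 10.83 and 10.99 in tumor-bearing osteoblasts, and 10.80, 10.56 and 10.90 and 10.99, 11.06 and 11.05 in endothelial cells. The tumor-free difference was 0.01 with a 95% interval of -0.25 to 0.27 (limma, adjusted p = 0.967), and the tumor-bearing difference was -0.13 (limma, adjusted p = 0.584). Itgb5, a partner of the alpha v subunit in a vitronectin receptor, measured 8.21, 8.30 and 8.18 in tumor-free and 8.70, 8.21 and 8.58 in tumor-bearing osteoblasts, and 6.56, 6.20 and 6.46 and 6.67, 6.59 and 6.38 in endothelial cells. No array overlapped, and osteoblasts were 3.54-fold (1.82, SE 0.15; limma, adjusted p = 1.87e-05) and 3.86-fold higher (1.95, SE 0.15; limma, adjusted p = 1.27e-05). Itgb5 is one of the partners of CD51, the marker by which osteoblasts were sorted.

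Itgb8, another partner of the alpha v subunit that is known for activating latent TGF-beta, measured 5.74, 5.95 and 6.07 in tumor-free and 5.61, 6.09 and 6.22 in tumor-bearing osteoblasts. In endothelial cells it measured 5.21, 5.08 and 5.24 and 4.97, 5.36 and 5.18, all below the 40th percentile. Because the gene passed the filter through osteoblasts alone, its differences of 0.74 (SE 0.17; limma, adjusted p = 0.0151) and 0.81 (SE 0.17; limma, adjusted p = 0.0114) could only be in their favour. The tumor-free call was lost without array 3 of the tumor-free osteoblasts (limma, adjusted p = 0.0517) and without array 2 of the tumor-free endothelial cells (0.0592). Itgb3, the beta subunit of the osteoclast and platelet vitronectin receptor, had values of 6.84, 6.72 and 6.35 and 7.00, 6.90 and 7.05 in osteoblasts, and 5.96, 6.05 and 5.80 and 5.63, 6.42 and 6.60 in endothelial cells. The osteoblast arrays were above the endothelial ones in both settings, yet the differences of 0.70 and 0.77 missed the threshold (limma, adjusted p = 0.0745 and 0.0572). Without endothelial array 1 of the tumor-bearing group the tumor-free difference stayed at 0.70 and passed (limma, adjusted p = 0.0103). That array enters it only through the spread shared by the groups. The tumor-bearing difference was then 0.48 (limma, adjusted p = 0.109). It passed at 0.96 without array 3 of that group, at 0.77 with a filter at the 60th percentile and at 0.72 with array weights (limma, adjusted p = 0.0297, 0.0475 and 0.0436). The tumor-free difference also passed with the compared groups alone (limma, adjusted p = 0.0444). Itgb2 and Itgb7, of leukocytes, and Itgb4, of epithelial hemidesmosomes, passed in neither comparison, and Itgb6, of epithelia, did not exceed 4.32.

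**Figure D2:**
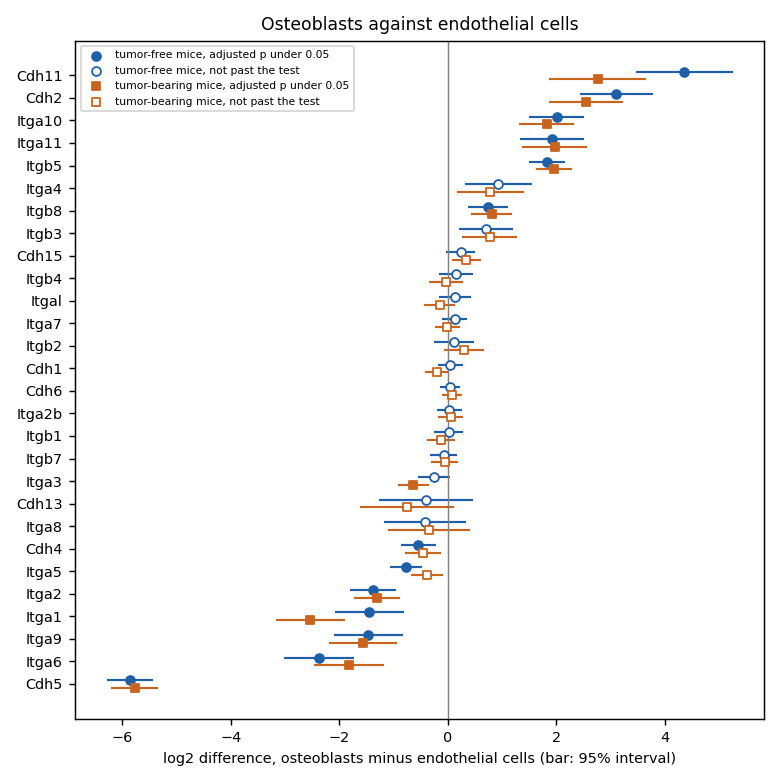
Osteoblasts minus endothelial cells on the log2 scale for the 28 tested genes, in tumor-free and in tumor-bearing mice; points are limma estimates from 3 arrays a group and bars their 95% intervals. Cdh11 and Cdh2 lie farthest to the osteoblast side and Cdh5 farthest to the endothelial side in both.

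The cadherin Cdh5 had the largest difference of the 28 genes in both comparisons. Cdh11 and Cdh2 followed in tumor-free mice, while in tumor-bearing mice Cdh11, Cdh2 and Itga1 lay within their standard errors of each other in size. Cdh5, which codes for VE-cadherin of endothelial junctions, measured 11.81, 11.83 and 11.85 in tumor-free and 11.82, 11.91 and 11.39 in tumor-bearing endothelial cells, against 5.80, 6.23 and 5.89 and 6.18, 6.09 and 5.54 in osteoblasts. The groups were far apart, 58.0-fold without (-5.86, SE 0.20; limma, adjusted p = 2.25e-08) and 54.5-fold with tumor (-5.77, SE 0.20; limma, adjusted p = 3.42e-08). Cdh11, first known as osteoblast cadherin, measured 11.42, 11.07 and 11.13 in tumor-free and 11.14, 11.22 and 10.97 in tumor-bearing osteoblasts. In endothelial cells it measured 7.66, 6.23 and 6.66 without and 9.27, 7.79 and 7.99 with tumor, below every osteoblast array. Osteoblasts were 20.5-fold higher in tumor-free (4.36, SE 0.40; limma, adjusted p = 4.96e-05) and 6.78-fold higher in tumor-bearing mice (2.76, SE 0.40; limma, adjusted p = 0.00129).

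Cdh2, N-cadherin of osteoblasts, neurons and muscle, measured 9.74, 8.97 and 8.95 in tumor-free and 9.13, 9.05 and 8.95 in tumor-bearing osteoblasts, against 6.01, 6.28 and 6.06 and 7.26, 6.03 and 6.20 in endothelial cells. No array overlapped, and osteoblasts were 8.61-fold (3.11, SE 0.31; limma, adjusted p = 7.58e-05) and 5.86-fold higher (2.55, SE 0.31; limma, adjusted p = 0.000334). Array 1 of the tumor-bearing endothelial cells stood above the other 5 endothelial arrays, as it did for Cdh11. Cdh4, R-cadherin, was the only cadherin beside Cdh5 with higher endothelial values, 7.02, 7.08 and 7.02 without and 7.25, 6.74 and 6.65 with tumor, against 6.38, 6.47 and 6.65 and 6.46, 6.47 and 6.36 in osteoblasts, to pass a test. Its tumor-free difference of -0.54 (SE 0.15; limma, adjusted p = 0.039) lost the call in 9 of 22 alternative analyses, and the tumor-bearing difference of -0.45 did not pass (limma, adjusted p = 0.0895).

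The other cadherins passed in neither comparison. Cdh13, the cadherin with a lipid anchor in place of a membrane span, had values of 6.10, 6.55 and 6.42 and 6.10, 6.27 and 7.32 in osteoblasts, and 6.44, 7.04 and 6.81 and 6.56, 8.07 and 7.34 in endothelial cells. Its groups overlapped, and the tumor-free difference of -0.40 had a 95% interval of -1.27 to 0.47, so that a doubling in endothelial cells lay within it. Cdh1, E-cadherin of epithelia, lay between 5.34 and 5.76 in all arrays. Its lowest value was in array 3 of the tumor-bearing osteoblasts, where Krt8, an epithelial keratin, measured 10.13 against 6.78 to 7.54 in the other 11 arrays. The median of 8 mammary epithelial markers, Krt8 among them, was 5.90 in that array and 5.77 to 6.13 in the others. The part of epithelial cells in these values was not tested. Cdh6 lay between 5.80 and 6.01 and Cdh15, of muscle, between 5.58 and 6.33.

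The second question of the design is whether tumor in the bone was accompanied by a change within either cell type. In osteoblasts 0 of the 28 genes passed (limma; 0.0563% of all genes, or 8, did), and 3 had an unadjusted p under 0.05, which is 10.7% against 9.78% of all genes. The median difference was -0.01 for the 28 and -0.02 for all genes. The 95% interval lay within a doubling or halving for 24 of the 28, or 85.7%, against 78.9% of all genes tested, so that changes beyond that size were outside the interval for most but not for Itga1, Itga4, Itga6 and Cdh13. In bulk RNA fewer cells of a type and less RNA per cell cannot be told apart.

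The osteoblast genes nearest to the threshold were Itga1, Itga5 and Itga6, whose array values stand above. Itga1 was lower in all 3 tumor-bearing arrays than in any tumor-free array, with a difference of -0.90 (SE 0.29, 95% interval -1.53 to -0.26; limma, unadjusted p = 0.0105, adjusted p = 0.353). Itga5 was higher in all 3, by 0.39 (SE 0.13, 95% interval 0.09 to 0.68; limma, unadjusted p = 0.0144, adjusted p = 0.367). Itga6 had a difference of 0.68 (limma, unadjusted p = 0.0404, adjusted p = 0.487) with arrays that overlapped, and it rested on array 3 of the tumor-bearing group, without which it was 0.31 (limma, unadjusted p = 0.168). Other markers differed in the same arrays. The 10 CAR cell markers, genes of marrow stromal cells, all had negative differences with tumor, with a median of -0.53 and sums of 6647 to 7818 without and 3800 to 5710 with tumor. Negative differences were also found for 5 of 5 tested erythroid markers (median -0.52), 5 of 6 B cell markers (median -0.39) and 9 of 10 neutrophil markers (median -0.92). The neutrophil sums were 4106, 4023 and 14191 without and 4704, 3255 and 2414 with tumor, so that array 3 of the tumor-free group stood far above the others. Of 11 monocyte and macrophage markers, 7 had positive and 4 negative differences (median 0.08). For 9 pan-haematopoietic markers it was 4 and 5 (median -0.01). None of these markers passed the test (limma), and their part in the values of the integrins was not tested. Arrays of the groups did not overlap for 3 of the 28 genes, Itga1, Itga5 and Itgb3, which is 10.7% against 14.5% of all genes. Itgb3 was higher with tumor by 0.35 (limma, adjusted p = 0.657), and by 0.20 without array 3 of the tumor-free group (limma, adjusted p = 0.844).

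In endothelial cells 0 of the 28 passed either (limma; 0.0141% of all genes, or 2, did), and 3 had an unadjusted p under 0.05, or 10.7% against 4.59% of all genes. The median difference was 0.08, and 0.01 over all genes. The 95% interval lay within a doubling or halving for 25 of the 28, or 89.3% against 83.3% of all genes, and not for Cdh2, Cdh11 and Cdh13. Arrays did not overlap for 5 genes, 17.9% against 10.5% of all genes, with Itga3, Itgb1, Cdh6 and Cdh11 higher and Itgb7 lower with tumor.

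Cdh11 had the largest difference of these, 1.50 or 2.83-fold (SE 0.40, 95% interval 0.60 to 2.40; limma, unadjusted p = 0.0038, adjusted p = 0.753), from the values of 7.66, 6.23 and 6.66 without and 9.27, 7.79 and 7.99 with tumor. All 3 tumor-bearing arrays were above all tumor-free ones. Without array 1 of the tumor-bearing group the difference was 1.04 (limma, unadjusted p = 0.013, adjusted p = 0.688). Markers of marrow stromal (CAR) cells moved with it: the 10 genes of that list summed to 1354 to 2134 in tumor-free and to 3356 to 5447 in tumor-bearing endothelial arrays, highest in array 1, and all 10 had positive differences, none of which passed the test. Among them Lepr, the leptin receptor, had values of 8.03, 7.28 and 7.43 without and 10.20, 9.34 and 8.82 with tumor. Of the 8 measured osteoblast markers, 5 had positive and 3 negative differences, with a median of 0.04. One of them, Ibsp, which codes for bone sialoprotein, measured 7.83, 8.26 and 7.90 without and 10.25, 8.87 and 8.76 with tumor. Of 10 pericyte and smooth muscle markers 8 had positive and 2 negative differences, with a median of 0.08. For 3 of the 10 the tumor-bearing arrays were all higher, or 30%, where arrays of 10.5% of all genes did not overlap in either direction. Among the 3 were Rgs5 (6.92, 6.34 and 6.77 without and 7.72, 8.65 and 7.77 with tumor) and Acta2 (6.06, 5.73 and 6.03 and 6.80, 7.34 and 7.04). The part of such cells in the Cdh11 values was not tested.

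Itga3 was higher in the tumor-bearing endothelial arrays by 0.36 (SE 0.13; limma, unadjusted p = 0.0187, adjusted p = 0.961) and Itgb1 by 0.28 (SE 0.12; limma, unadjusted p = 0.0384, adjusted p = 1). The groups did not overlap for either gene, but the Itgb1 difference fell to 0.18 (limma, unadjusted p = 0.158) without array 2 of the tumor-free group. The Itga3 difference was 0.29 without array 2 of the tumor-bearing group and 0.33 without array 3 of the tumor-free group (limma, unadjusted p = 0.0729 and 0.053). Cdh6 (5.85, 5.87 and 5.87 without and 5.92, 5.91 and 5.95 with tumor) and Itgb7 (5.78, 5.86 and 5.73 and 5.55, 5.72 and 5.70) differed by 0.06 and -0.13 (limma, adjusted p = 1 and 1). Cdh5 differed by -0.13 (limma, adjusted p = 1), with arrays that overlapped and array 3 of the tumor-bearing cells lowest at 11.39.

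**Figure D3:**
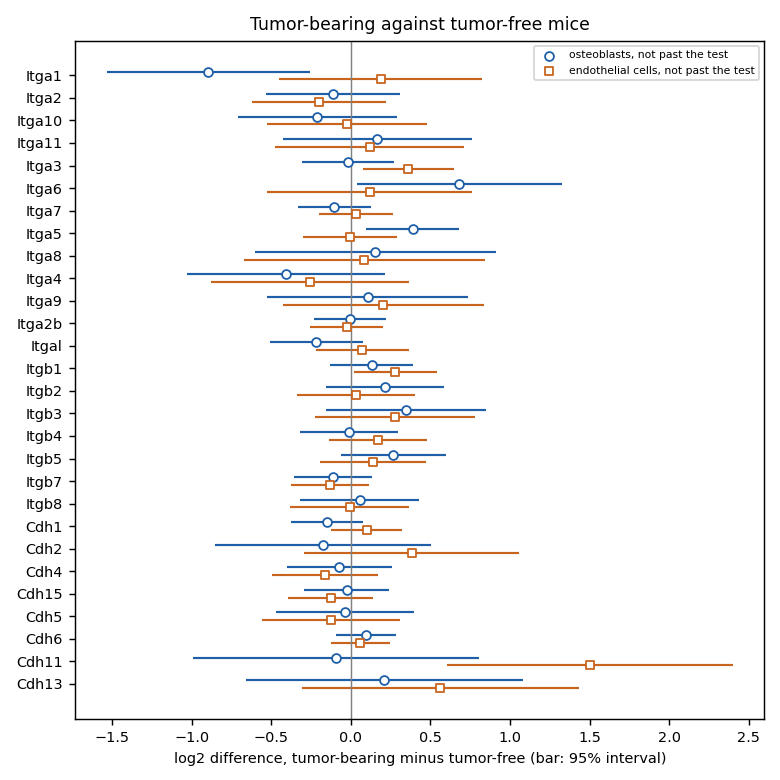
Tumor-bearing minus tumor-free on the log2 scale for the 28 tested genes in osteoblasts and in endothelial cells; points are limma estimates from 3 arrays a group and bars their 95% intervals. No gene passed the adjusted test, and endothelial Cdh11 (1.50) and osteoblast Itga1 (-0.90) lie farthest from 0.

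The tumor differences of the cell types were also compared with each other. Here 0 of the 28 genes passed (limma; 0.0281% of all genes, or 4, did), and 2 had an unadjusted p under 0.05, or 7.14% against 6.47% of all genes. For Cdh11 the osteoblast difference minus the endothelial difference was -1.60 (SE 0.57, 95% interval -2.87 to -0.33; limma, unadjusted p = 0.0185, adjusted p = 0.693). For Itga1 it was -1.08 (SE 0.41, 95% interval -1.99 to -0.18; limma, unadjusted p = 0.0229, adjusted p = 0.699), with lower values with tumor in osteoblasts and a difference of 0.19 in endothelial cells. The intervals lay within a doubling or halving for 21 of the 28, or 75% against 63.3% of all genes. They did not for Itga1, Itga4, Itga6, Itga8, Cdh2, Cdh11 and Cdh13.

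**Figure D4:**
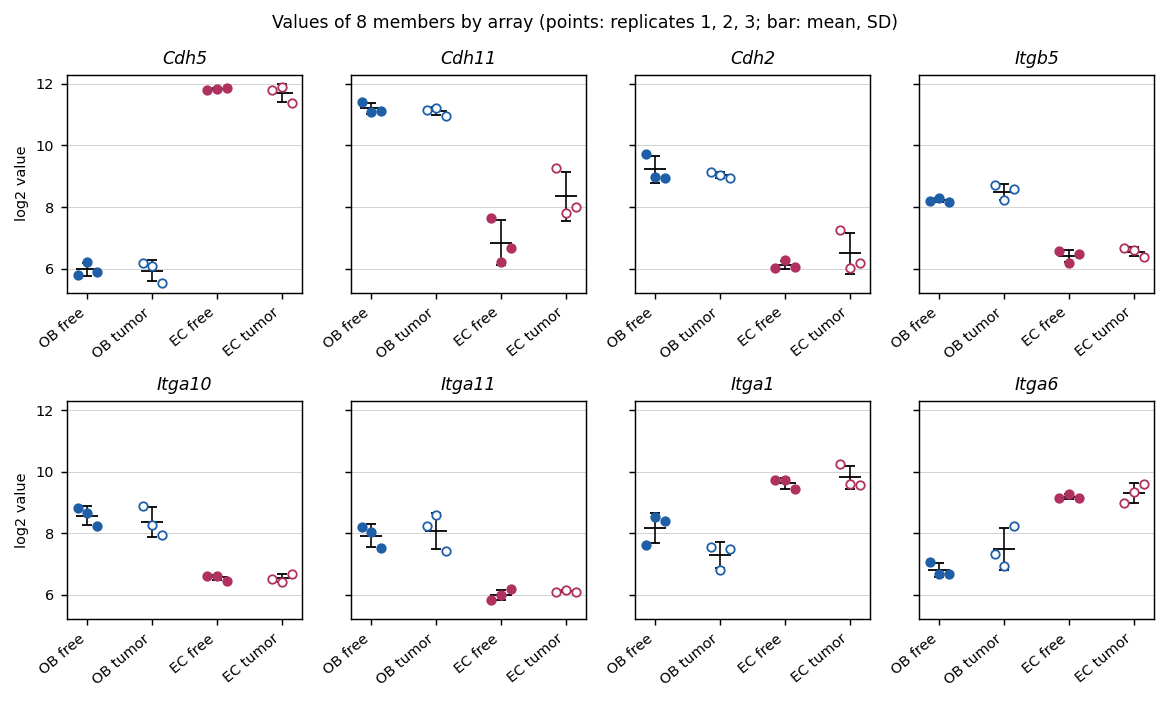
Log2 values of selected integrins and cadherins in each array (points) with the mean and SD of each group (dashes and error bars) for the 4 groups of 3 arrays (OB, osteoblasts; EC, endothelial cells; free, tumor-free; tumor, tumor-bearing). Endothelial Cdh11 spreads from 6.23 to 9.27 over both groups while osteoblast Cdh11 stays between 10.97 and 11.42.

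Genes that act with these receptors inside the cell were read beside them. Cadherin partners leaned to the endothelial cells: of 13 tested catenins, nectins and associated genes, 6 were higher in endothelial cells and 0 in osteoblasts in tumor-free mice (46.2%, against 7% of all genes in that direction), and 5 and 0 in tumor-bearing mice (38.5% against 5.68%). Their median difference was -0.44 and -0.55. Ptprb, the phosphatase VE-PTP that binds VE-cadherin, differed by -4.82 without and -4.87 with tumor (limma, adjusted p = 1.63e-08 and 1.62e-08). Jup, which codes for plakoglobin, differed by -1.90 and -2.23 (limma, adjusted p = 0.00113 and 0.000444), and Afdn, which codes for the junction adaptor afadin, by -1.60 and -1.16 (limma, adjusted p = 0.000462 and 0.00421).

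Integrin activators and adaptors were spread over both directions. Of 25 tested, 2 were higher in osteoblasts and 6 in endothelial cells in tumor-free mice (32%, against 12.4% of all genes), and 1 and 3 in tumor-bearing mice (16% against 10.6%). Tln2, a talin that switches integrins on, was 0.80 and 0.61 higher in osteoblasts (limma, adjusted p = 0.0117 and 0.0493). Tns3, a tensin of fibrillar adhesions, was 1.41 higher in tumor-free mice (limma, adjusted p = 0.0019), and its 0.77 in tumor-bearing mice did not pass (0.0535). Pxn, which codes for the scaffold paxillin, was lower in osteoblasts by -0.68 and -0.59 (limma, adjusted p = 0.00312 and 0.00787). In the tumor comparisons of either cell type 0 genes of these lists passed (limma), and an unadjusted p under 0.05 was reached by 3 in osteoblasts and 2 in endothelial cells of the 25 and 13 genes tested, where 9.78% and 4.59% of all genes reached it.

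Of 10 further tested integrin and cadherin genes, 1 passed in each cell type comparison, or 10%, against 12.4% of all genes in tumor-free and 10.6% in tumor-bearing mice. Itgav codes for CD51, on which osteoblasts were sorted, so its direction is not independent of the gate. It measured 9.37, 9.38 and 8.61 in tumor-free and 8.75, 8.87 and 8.94 in tumor-bearing osteoblasts, and 8.14, 6.88 and 8.09 and 8.22, 7.24 and 8.33 in endothelial cells. The arrays did not overlap, and the difference was 1.41 (SE 0.38; limma, adjusted p = 0.0341) in tumor-free and 0.93 (SE 0.38; limma, adjusted p = 0.172) in tumor-bearing mice.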

How the data were processed

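The authors deposited log2 values, made with the package affy per the submitters' processing notes. Not given in the sources used here are its version, how probes were summarised and which probe set definition was taken. Per the labels' protocols, a Pico Pure kit gave the RNA of 5000 cells and a NuGEN kit amplified it, which can distort proportions of transcripts. Array medians were 5.95 to 6.04, and the authors' scaling was kept. Of 34760 probe sets, 21640 have 1 gene symbol in the platform annotation, 1321 several and 11799 none; a RefSeq table of GRCm38.p6 matched 21553 of the single-symbol probe sets by Entrez number. The brightest probe set of a gene by its mean over 12 arrays was used.

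The 12 arrays entered 1 fit with a coefficient for each group (limma 3.58.1, R 4.3.3; lmFit, contrasts and eBayes). P-values are two-sided and adjusted by Benjamini-Hochberg over 14217 genes, with a threshold of 0.05; the number of arrays limits the precision. The procedure was tested on simulated data. The genes and lists were chosen with earlier results of these data known. Every gene of the set is accounted for; those past the test, or under an unadjusted p of 0.05 in a tumor comparison, are given in full, and up to 4 genes are named from each related list. Arrays are counted as not overlapping where all values of one group lie above all of the other. RefSeq promoters (GRCm38.p6) were matched by symbol for 21 of the 35 genes. Alternatives were other scalings and filters, array weights, fits of the compared groups only, the replicate number as a block, and leaving out arrays.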

Additional observations from a re-analysis of the deposited data

How the results depend on the processing

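The counts of integrins and cadherins past the test stayed within 1.5 times the reported ones in all alternatives, 22 for each comparison and 21 for the difference of tumor effects, which the compared groups alone cannot give. The tumor-free count of 13 ranged from 11 to 14 when each array was left out in turn and from 12 to 14 otherwise, the tumor-bearing count of 12 from 12 to 13 and from 11 to 14, and the tumor comparisons and their difference gave 0 throughout. The 10 genes Itga1, Itga2, Itga6, Itga9, Itga10, Itga11, Itgb5, Cdh2, Cdh5 and Cdh11 kept their calls in both comparisons under every alternative. Itgb8 and Cdh4 did not in tumor-free mice, nor Itga3 and Itgb8 in tumor-bearing mice. The fit of the compared groups alone gave adjusted p = 0.0549 for Itga3 and 0.0601 for Itgb8 in tumor-bearing mice (limma). Itga4, at 0.0555 in tumor-free mice, passed without array 1 of the tumor-free osteoblasts, its lowest there at 5.37, with 1.29 (limma, adjusted p = 0.0026). Why that array was low was not tested. Itga4 also passed with quantile normalization and median centring (limma, adjusted p = 0.0444 and 0.0431). In tumor-bearing mice, at 0.114, it passed with array weights, the compared groups alone and without the same array (limma, adjusted p = 0.0428, 0.0425 and 0.0197). Without that tumor-free array the tumor-bearing difference stayed at 0.78, because the array enters it only through the spread shared by the groups. No other alternative passed. No difference of a named gene that passed the test changed sign. With the replicate number as a block 12, 12, 0, 0 and 0 genes passed; deviations of same-numbered arrays correlated at -0.08 to 0.07, and no pairing was assumed, since the labels do not say whether they share mice. Over all genes, the osteoblast tumor count of 8 ranged from 0, with the compared groups alone, to 45, without array 3 of both osteoblast groups; in single omissions it was 1 to 25, the endothelial count 2 to 6 and the count for the difference of effects 0 to 7. Differences near the 40th percentile are understated on this scale, and 3 arrays a group leave wide intervals.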

Other observations

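Itgbl1, a secreted protein with integrin-like repeats and no membrane span, was the gene outside the set that passed in tumor-bearing mice, with osteoblasts minus endothelial cells at 2.95 (SE 0.68; limma, adjusted p = 0.0187). It passed the filter on low values almost wholly through osteoblasts, with 6 osteoblast arrays and 1 endothelial array above the 40th percentile, so this direction was the one it could take. The tumor-free difference was 2.17 (SE 0.68; limma, adjusted p = 0.0664). Its values were 7.33, 7.29 and 7.74 in tumor-free osteoblasts, 9.48, 9.22 and 6.32 in tumor-bearing osteoblasts, 5.57, 5.01 and 5.28 in tumor-free endothelial cells and 4.91, 5.26 and 6.00 in tumor-bearing endothelial cells. Arrays 1 and 2 of the tumor-bearing osteoblasts stood above the tumor-free ones and array 3 below them. The median of 13 chondrocyte markers in the same tumor-bearing osteoblast arrays was 9.11, 9.94 and 7.84, and in tumor-free osteoblasts 8.20, 9.77 and 8.06. Tumor-bearing minus tumor-free in osteoblasts was 0.88 with a 95% interval of -0.62 to 2.39 (limma, adjusted p = 0.705).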
